A study of Mus musculus with 6 samples.

Results

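The cytosolic sensors of nucleic acid and the proteins that relay their signal were examined in bone marrow-derived macrophages of Gps2 knockout mice. The set held 10 genes of 18820 tested, chosen by name with earlier results of these data known. The sensors were Ddx58 (RIG-I), Ifih1 (MDA5), Dhx58 (LGP2), Zbp1, Aim2 and Cgas (cGAS). The adaptors were Sting1 (STING) and Mavs, and the kinases Ikbke and Tbk1. All 10 had a single probe set with 1 gene symbol, and none was dim, meaning a mean signal under 5.49 on the log2 scale, the 40th percentile of the tested genes. Macrophages from mice labelled GPS2KO or MKO, a knockout of Gps2 in macrophages, were compared with wild-type (WT) macrophages. The labels give neither the deleted exons nor the Cre driver. Each group had 3 Affymetrix arrays. All mice were male and about 12 to 16 weeks old, and marrow cells of both groups grew for 7 days in medium with 30% L929-conditioned medium, which supplies macrophage growth factor, with no stimulus. Whether each array stands for its own animal is not stated in the labels. The p-values therefore cover the spread among these arrays, and that spread may be technical.

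These proteins detect viral or misplaced cellular nucleic acid outside the endosome. RIG-I and MDA5 are helicases that bind double-stranded or uncapped RNA and signal through MAVS on the mitochondrion, while LGP2 lacks the signalling domains and tunes the other helicases. cGAS binds DNA and makes a cyclic dinucleotide that activates STING, AIM2 binds DNA and assembles an inflammasome, and ZBP1 binds Z-form nucleic acid and can start necroptosis. MAVS and STING both recruit TBK1 and IKK-epsilon, the product of Ikbke, which phosphorylate IRF3 and IRF7 so that interferon genes are transcribed. Several sensor genes are themselves induced by interferon. GPS2 belongs to a co-repressor complex of the nucleus that also holds HDAC3.

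Promoter sequence was available for 7 of the 10 genes, from RefSeq on build GRCm38.p6, as 250 bases before and 50 bases after the gene start. Dhx58, Zbp1 and Sting1 were not analysed here in this respect. Windows of 4 genes are shown, those of Ifih1, Ddx58 and Ikbke because their signal was lower in GPS2KO macrophages, and that of Tbk1 as the partner kinase of Ikbke. Capitals mark matches to GAAANNGAAA, the core of the interferon-stimulated response element (ISRE), or to GAAANGAAA, a closer pair chosen after the sequences were seen, on either strand.
Ifih1, chr2:62646206-62646505, minus strand: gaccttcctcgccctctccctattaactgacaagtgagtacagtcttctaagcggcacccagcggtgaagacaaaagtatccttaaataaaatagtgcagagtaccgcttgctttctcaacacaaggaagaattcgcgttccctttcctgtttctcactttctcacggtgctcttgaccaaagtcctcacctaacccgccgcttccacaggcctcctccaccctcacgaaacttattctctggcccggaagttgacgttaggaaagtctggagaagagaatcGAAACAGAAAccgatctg
Ddx58, chr4:40239776-40240075, minus strand: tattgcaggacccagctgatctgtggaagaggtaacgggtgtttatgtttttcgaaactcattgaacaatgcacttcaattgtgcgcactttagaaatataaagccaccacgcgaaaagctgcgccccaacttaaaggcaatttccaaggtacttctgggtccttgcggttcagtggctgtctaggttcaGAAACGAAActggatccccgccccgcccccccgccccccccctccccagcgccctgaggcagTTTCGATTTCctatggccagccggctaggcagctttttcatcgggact
Ikbke, chr1:131279514-131279813, minus strand: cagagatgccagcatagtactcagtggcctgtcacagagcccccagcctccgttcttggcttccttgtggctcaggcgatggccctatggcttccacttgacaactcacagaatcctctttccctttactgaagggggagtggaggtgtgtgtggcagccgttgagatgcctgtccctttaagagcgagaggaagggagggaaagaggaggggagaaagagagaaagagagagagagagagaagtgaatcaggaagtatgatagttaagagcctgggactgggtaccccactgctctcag
Tbk1, chr10:121586745-121587044, minus strand: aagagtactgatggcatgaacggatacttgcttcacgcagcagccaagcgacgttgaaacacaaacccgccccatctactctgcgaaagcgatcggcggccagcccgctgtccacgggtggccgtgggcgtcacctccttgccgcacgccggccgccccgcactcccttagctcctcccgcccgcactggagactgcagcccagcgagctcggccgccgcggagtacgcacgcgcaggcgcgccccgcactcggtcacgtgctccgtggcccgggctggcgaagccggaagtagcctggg

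GAAANNGAAA or its reverse complement was found in 2 of the 7 windows, those of Ifih1 and Ddx58. It was in 3.44% of 32851 promoter windows of the same length, called all windows here. Windows on chromosome 18 were left out of that count. In Ifih1 the match GAAACAGAAA began 33 bases into the transcribed side of the gene start. In Ddx58 the match, read as TTTCGATTTC on the strand shown, began at base 3 of that side. Ddx58 also held GAAACGAAA, which began 60 bases before the start and did not overlap the ISRE match. That closer pair, GAAANGAAA, was in 3.17% of all windows. A kappaB motif, GGGNNTTTCC, and a STAT motif, TTCNNNGAA, were in 0 of the 7 windows, against 1.63% and 8.3% of all windows. A match is a description of these letters and not a binding site, and the letters were searched only in these windows.

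The labels were first checked on Gps2, which had log2 signals of 10.289, 10.164 and 10.187 on the GPS2KO arrays and 10.943, 10.931 and 11.002 on the WT arrays. It fell by 0.75 on the log2 scale (SE 0.0472, limma adjusted p = 0.000256), to 59.7% of the WT signal, and the groups did not overlap. By exact 2-sided permutation of the group labels p was 0.1, the lowest value possible with 20 arrangements. The fall of Gps2 was in the direction of the labels. Whether its probe set lies in the deleted part is not stated, and the reason for the signal that remained was not tested. Array medians lay between 5.565 and 5.597. The macrophage markers Lyz2 and Cd68 averaged 13.34 and 13.16 in GPS2KO cells and 13.38 and 13.12 in WT cells.

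In resting GPS2KO macrophages 5 of the 10 genes fell, 0 rose and 5 did not pass the threshold, an adjusted p of 0.05. The genes that fell were the 3 RNA helicases, Zbp1 and Ikbke. For each of these, every GPS2KO array lay below every WT array. Over all 18820 tested genes, 3.83% fell and 2.9% rose at the same threshold, together 6.72%, and 15.2% had every GPS2KO array below every WT array. The 10 genes were chosen with earlier results of these data known, so this contrast is not independent support. Centring each array on its median turned the calls over all genes to 1061 falls and 460 rises, against 720 and 545, and left 5 falls among the 10. A mean lower in GPS2KO, past the threshold or not, was found for 7 of the 10 and for 53.5% of all tested genes. The median change of the 10 was -0.16 on the log2 scale, beside -0.01 over all tested genes. No DNA sensor (0 of 2) and no adaptor (0 of 2) passed.

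**Figure D1:**
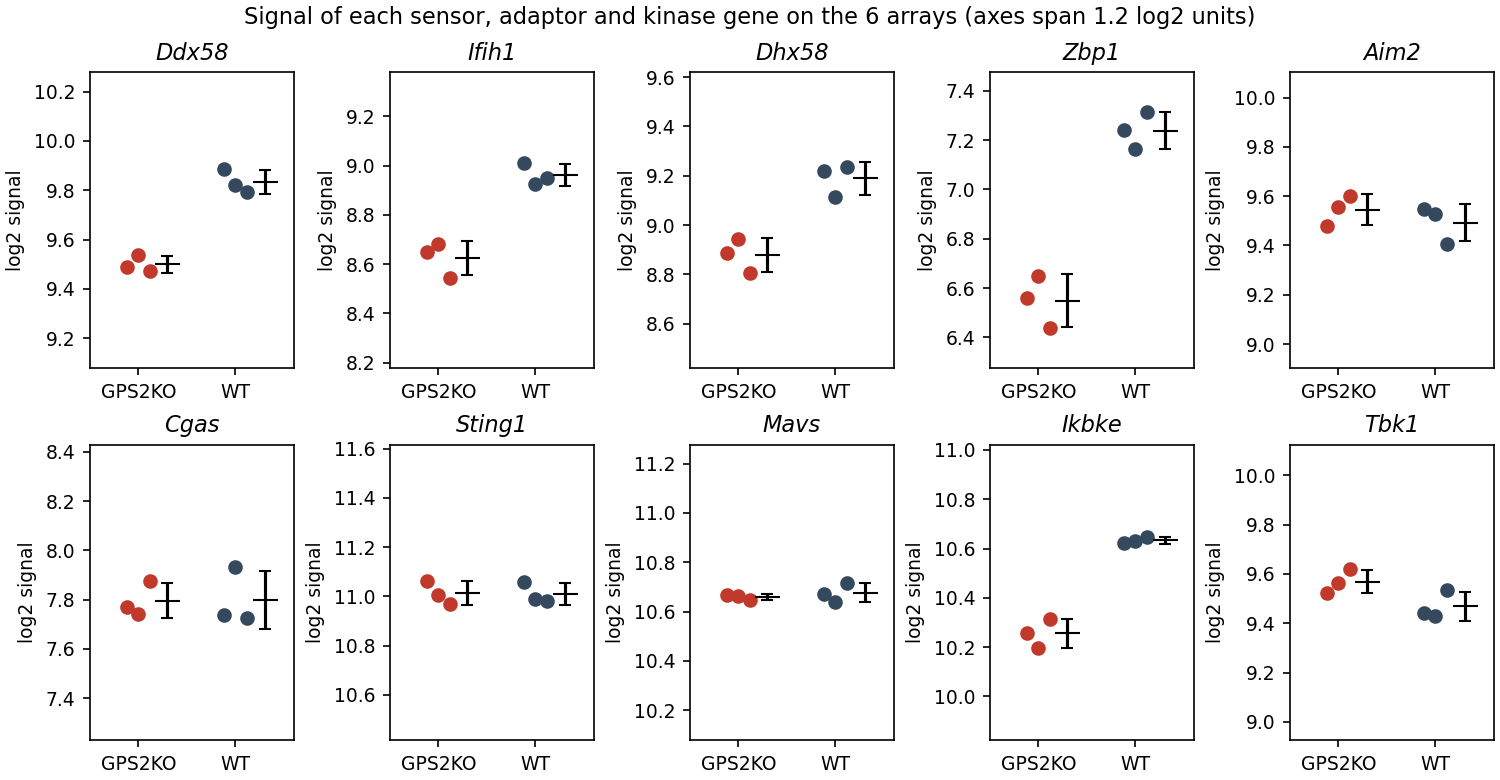
Log2 signal of each of the 10 genes on the 6 arrays, GPS2KO in red and WT in grey, with the mean and SD (n = 3) beside the points. Every panel spans the same height in log2 units but starts at its own level. The groups stand apart for Ddx58, Ifih1, Dhx58, Zbp1 and Ikbke and overlap for the other 5 genes.

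Zbp1, the sensor of Z-form nucleic acid, had the largest change of the 10. Its log2 signal was 6.56, 6.65 and 6.44 on the GPS2KO arrays, against 7.24, 7.16 and 7.31 on the WT arrays. The highest GPS2KO array thus lay well under the lowest WT array. The means were 6.55 ± 0.11 in GPS2KO and 7.24 ± 0.08 in WT (SD, n = 3 each). Zbp1 fell 1.61-fold (log2 change -0.69, SE 0.0648, 95% confidence interval -0.84 to -0.54, limma adjusted p = 0.0011), and was 46th by size among the 720 genes that fell.

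Ddx58, the RIG-I helicase, had log2 signals of 9.49, 9.54 and 9.47 in GPS2KO and 9.89, 9.82 and 9.79 in WT. It fell 1.26-fold (log2 change -0.33, SE 0.0425, 95% confidence interval -0.43 to -0.23, limma adjusted p = 0.00396). The spread within each group, an SD of 0.03 in GPS2KO and 0.05 in WT, was small beside this change. Ifih1, the MDA5 helicase, had 8.65, 8.68 and 8.55 in GPS2KO and 9.01, 8.92 and 8.95 in WT. It too fell 1.26-fold (log2 change -0.34, SE 0.0494, 95% confidence interval -0.45 to -0.22, limma adjusted p = 0.00726). Both sensors of viral RNA that signal through Mavs were therefore lower on every GPS2KO array.

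Dhx58, whose product LGP2 tunes the other helicases, had 8.89, 8.94 and 8.81 in GPS2KO and 9.22, 9.11 and 9.23 in WT. It fell 1.24-fold (log2 change -0.31, SE 0.053, 95% confidence interval -0.43 to -0.19, limma adjusted p = 0.0137). The gap between the groups was narrowest at WT replicate 2 and GPS2KO replicate 2. The call of Dhx58 ended without WT replicate 1 (adjusted p = 0.0534) or WT replicate 3 (adjusted p = 0.0537), and when all deposited probe sets were fitted together (adjusted p = 0.0544). The 3 helicases changed by like amounts: Ifih1 differed from Ddx58 by -0.0046 and Dhx58 from Ddx58 by 0.02 in their log2 change, with overlapping groups. The exact 2-sided permutation p-values were 1 and 0.8, which does not show that the changes are equal.

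Of the kinases that phosphorylate IRF3 and IRF7, Ikbke fell and Tbk1 did not pass. Ikbke had 10.26, 10.20 and 10.32 in GPS2KO and 10.62, 10.63 and 10.65 in WT. The WT arrays lay within an SD of 0.01, the tightest group but one among the 10 genes. Ikbke fell 1.30-fold (log2 change -0.38, SE 0.0428, 95% confidence interval -0.48 to -0.28, limma adjusted p = 0.00248). Tbk1 had 9.52, 9.56 and 9.62 in GPS2KO and 9.44, 9.43 and 9.54 in WT, so that one WT array lay among the GPS2KO arrays. Its log2 difference was 0.10 (95% confidence interval -0.01 to 0.21, limma adjusted p = 0.287). The change of Ikbke minus that of Tbk1 was -0.48 on the log2 scale, with separate groups (exact 2-sided permutation p = 0.1, the smallest possible, and adjusted p = 0.3 over the 6 pairs compared).

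Neither adaptor differed beyond the spread between arrays. Mavs, the mitochondrial adaptor of the RNA helicases, had 10.67, 10.66 and 10.65 in GPS2KO and 10.67, 10.64 and 10.72 in WT. The GPS2KO arrays lay inside the WT range. Its log2 difference was -0.02 (95% confidence interval -0.11 to 0.07, limma adjusted p = 0.851). Sting1, the adaptor of the DNA pathway, had 11.064, 11.004 and 10.969 in GPS2KO and 11.060, 10.989 and 10.982 in WT, a difference of 0.0022 (95% confidence interval -0.10 to 0.10, limma adjusted p = 0.984). Both intervals ended short of the changes of Ddx58 and Ikbke. The change of Mavs minus that of Sting1 was -0.02, with overlapping groups (exact 2-sided permutation p = 0.7).

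The sensors of DNA likewise did not pass. Cgas, the enzyme that makes the STING ligand, had 7.77, 7.74 and 7.88 in GPS2KO and 7.74, 7.93 and 7.73 in WT. WT replicate 2 stood above the other 5 arrays, and the groups overlapped. The log2 difference was -0.0027 (95% confidence interval -0.16 to 0.15, limma adjusted p = 0.986). Aim2 had 9.48, 9.56 and 9.60 in GPS2KO and 9.55, 9.53 and 9.41 in WT, a log2 difference of 0.05 (95% confidence interval -0.07 to 0.18, limma adjusted p = 0.644). Set against Aim2, Cgas differed in its change by -0.05 with overlapping groups (exact 2-sided permutation p = 0.4). Zbp1 differed from Aim2 by -0.74, with separate groups (exact 2-sided permutation p = 0.1, the smallest possible, and adjusted p = 0.3 over the 6 pairs).

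**Figure D2:**
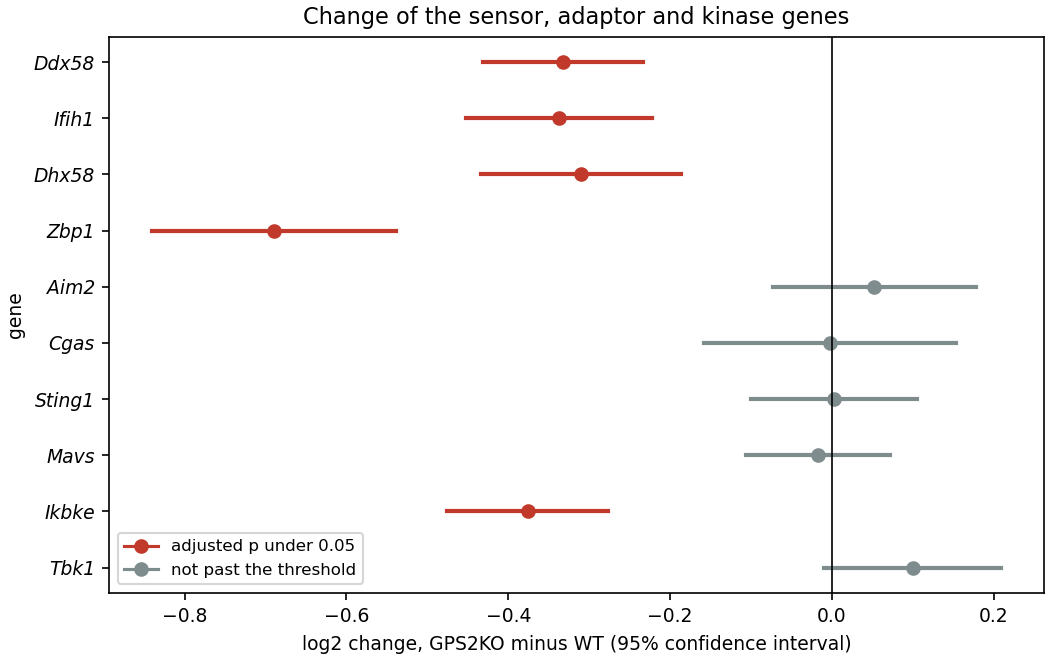
Log2 change, GPS2KO minus WT, of the 10 genes with limma's 95% confidence interval (n = 3 arrays per group). Genes past the adjusted p threshold of 0.05 are red and the others grey. The 5 red intervals lie wholly below 0, from -0.84 to -0.19, while the 5 grey intervals include 0.

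Within the GPS2KO group, the sensors that fell shared an order of arrays. All 4 sensors that fell were highest on GPS2KO replicate 2 and lowest on GPS2KO replicate 3 among the GPS2KO arrays. Ikbke had the reverse order. Among all 720 genes that fell, 228 were highest on GPS2KO replicate 2 and 280 lowest on GPS2KO replicate 3. Of the 11 genes that fell in the pathway lists described below, 7 were highest on GPS2KO replicate 2 and 5 lowest on GPS2KO replicate 3. These are separate counts, and genes with both were not counted. In WT, 3 of the 4 sensors were lowest on replicate 2, as were 7 of the 11 pathway genes and 233 of the 720. Part of the order was thus seen in most of the 11 pathway genes. Over the 720 it was not the usual order, since GPS2KO replicate 1 was highest for 286.

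Positions along the chromosomes were set beside the changes, using the RefSeq gene order of GRCm38.p6 and the 5 tested genes on each side. Counts of neighbours past the threshold stand beside 3.83% of all tested genes that fell and 2.9% that rose. For Ddx58, Ifih1, Dhx58 and Zbp1, 0 of 10 neighbours passed the threshold. Of the 10 neighbours of Ikbke 1 fell, Il10, an anti-inflammatory cytokine gene (log2 change -0.29, SE 0.0593, limma adjusted p = 0.0298). Aim2, which did not pass, lies among genes of the interferon-inducible Ifi200 family, and 3 of its 10 neighbours fell: Ifi213 (-0.66, limma adjusted p = 0.0466), Ifi209 (-0.56, limma adjusted p = 0.0427) and Cadm3 (-0.22, limma adjusted p = 0.0359). Each of these 4 neighbours, named after their values were seen, kept its call in 1 of the 6 fits that left out an array, and in these fits the adjusted p ran up to 0.101 for Il10, 0.136 for Ifi213, 0.13 for Ifi209 and 0.105 for Cadm3. All 4 lost their calls when every deposited probe set was fitted. The mean signals of Ifi213 and Cadm3 were dim.

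Around the 10 genes, 8 lists of pathway genes held 120 distinct others, of which 106 were tested: 11 fell, 2 rose and 93 did not pass, where 3.83% of all tested genes fell and 2.9% rose. The median change of the 106 was -0.02, and 32 of them, against 15.2% of all tested genes, had every GPS2KO array below every WT array. These lists too were chosen with earlier results of these data known, so the contrast with all genes is not independent support. Both counts of calls changed with the setting. Centring each array on its median gave 18 falls and 0 rises. Leaving out 1 array gave between 7 and 10 falls and between 0 and 1 rises, with 7 falls without GPS2KO replicate 3 or WT replicate 3.

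Downstream of the kinases, 1 of 9 transcription factor genes fell, 0 rose and 8 did not pass (median -0.01). That gene was Irf7, the interferon regulatory factor that amplifies the response. Irf7 had 7.88, 8.05 and 7.82 in GPS2KO and 8.81, 8.77 and 9.12 in WT (log2 change -0.98, SE 0.1, limma adjusted p = 0.00149). Irf3, the other substrate factor, averaged 9.17 ± 0.04 in GPS2KO and 9.18 ± 0.09 in WT (SD, n = 3 each; limma adjusted p = 0.947). Jun, Rela and Stat6 lay between -0.08 and 0.14. Of 4 interferon genes tested 0 passed (median -0.03), and 3 were dim. Ifnb1, the interferon beta gene, averaged 4.24 ± 0.07 in GPS2KO and 4.26 ± 0.06 in WT (SD, n = 3 each), both under the dim limit. Its log2 difference was -0.03 (95% confidence interval -0.15 to 0.09, limma adjusted p = 0.832). Ifne, Ifna4 and Ifnl2 lay between -0.06 and 0.10.

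Of 14 genes for adaptors and scaffolds of the kinases, 0 passed (median -0.01). Ikbkg, which encodes NEMO, came nearest to the threshold (log2 difference -0.19, limma adjusted p = 0.0709). Ikbkg passed after median centring (adjusted p = 0.0419), with a variance trend (0.0211), without dim genes (0.0326) and without WT replicate 2 (0.0434). Traf5 differed by 0.14, Traf2 by -0.13 and Sike1, which encodes a suppressor of IKK-epsilon, by 0.08, none past the threshold.

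Of 27 regulators of the RNA sensors, 3 fell, 1 rose and 23 did not pass (median -0.02). Usp18, the protease that removes ISG15, had 8.101, 8.507 and 8.125 in GPS2KO and 9.316, 9.001 and 9.667 in WT. It fell 2.12-fold (log2 change -1.08, SE 0.173, limma adjusted p = 0.0103), with a wide spread in both groups that did not overlap. Usp18 kept its call in 12 of 13 alternative settings and lost it when all deposited probe sets were fitted (adjusted p = 0.0523). Nlrc3, a NOD-like receptor that restrains STING signalling and was listed with both kinds of sensor, fell by 0.27 (SE 0.0432, limma adjusted p = 0.0104). Isg15, the ubiquitin-like modifier, fell by 0.29 (limma adjusted p = 0.0183) at a dim signal. It still passed without GPS2KO replicate 2 or WT replicate 2, but not without any of the other 4 arrays (adjusted p up to 0.0698). Ppp1cc, a phosphatase that activates RIG-I and MDA5, rose by 0.18 (limma adjusted p = 0.0354), but in none of the fits that left out an array (adjusted p 0.0677 to 0.119).

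Of 26 regulators of the DNA sensors, 2 fell, 0 rose and 24 did not pass (median -0.01). Beside Nlrc3 this was Trim56, a ubiquitin ligase acting on cGAS and STING, which fell by 0.20 (limma adjusted p = 0.0329). Trim56 passed in none of the fits that left out an array (adjusted p 0.0578 to 0.0996). Lrrc8c and Lrrc8a, subunits of the channel that carries the cyclic dinucleotide, differed by -0.15 and -0.14 (limma adjusted p = 0.0642 and 0.103).

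Of 13 nucleases and editors of self nucleic acid, 3 fell, 1 rose and 9 did not pass (median -0.10). Trex1, the exonuclease that clears cytosolic DNA, had 6.64, 6.85 and 6.67 in GPS2KO and 7.21, 7.07 and 7.20 in WT. It fell 1.36-fold (SE 0.0679, limma adjusted p = 0.00897). Oas2 and Oas3, which make the oligoadenylate that activates RNase L, fell 1.38-fold and 1.63-fold (limma adjusted p = 0.0044 and 0.00702). All 3 kept their calls without any 1 array, at adjusted p up to 0.0408. Dnase1l3, a secreted nuclease with a dim signal, rose by 0.27 (limma adjusted p = 0.0485), but in none of the fits that left out an array (adjusted p 0.0643 to 0.135).

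Of 9 genes of the AIM2 inflammasome, 1 fell, 0 rose and 8 did not pass (median -0.11). The gene that fell was Mefv, which encodes pyrin, a sensor of another inflammasome. Its log2 signals were 5.77, 5.91 and 5.91 in GPS2KO and 6.31, 6.42 and 6.52 in WT (log2 change -0.55, SE 0.0635, limma adjusted p = 0.00257). Gsdmd, the pore former of pyroptosis, differed by -0.17 (limma adjusted p = 0.0639), Ninj1, which ruptures the membrane, by -0.14 (limma adjusted p = 0.088) and Il1b by 0.17 (limma adjusted p = 0.107).

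Of 6 genes for the cell death partners of ZBP1, 2 fell, 0 rose and 4 did not pass (median -0.06). Ripk3, the kinase that ZBP1 binds, had 9.49, 9.42 and 9.38 in GPS2KO and 9.65, 9.62 and 9.61 in WT (log2 change -0.20, SE 0.0423, limma adjusted p = 0.0329). Casp6, a caspase reported to promote the binding of RIPK3 to ZBP1, fell by 0.23 (SE 0.0481, limma adjusted p = 0.0325). Of the fits that left out an array, both genes passed in the one without GPS2KO replicate 1, with adjusted p up to 0.113 for each gene in the others. Mlkl, the executioner of necroptosis, differed by -0.13 (limma adjusted p = 0.102) and Fadd by 0.09 (limma adjusted p = 0.314).

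**Figure D3:**
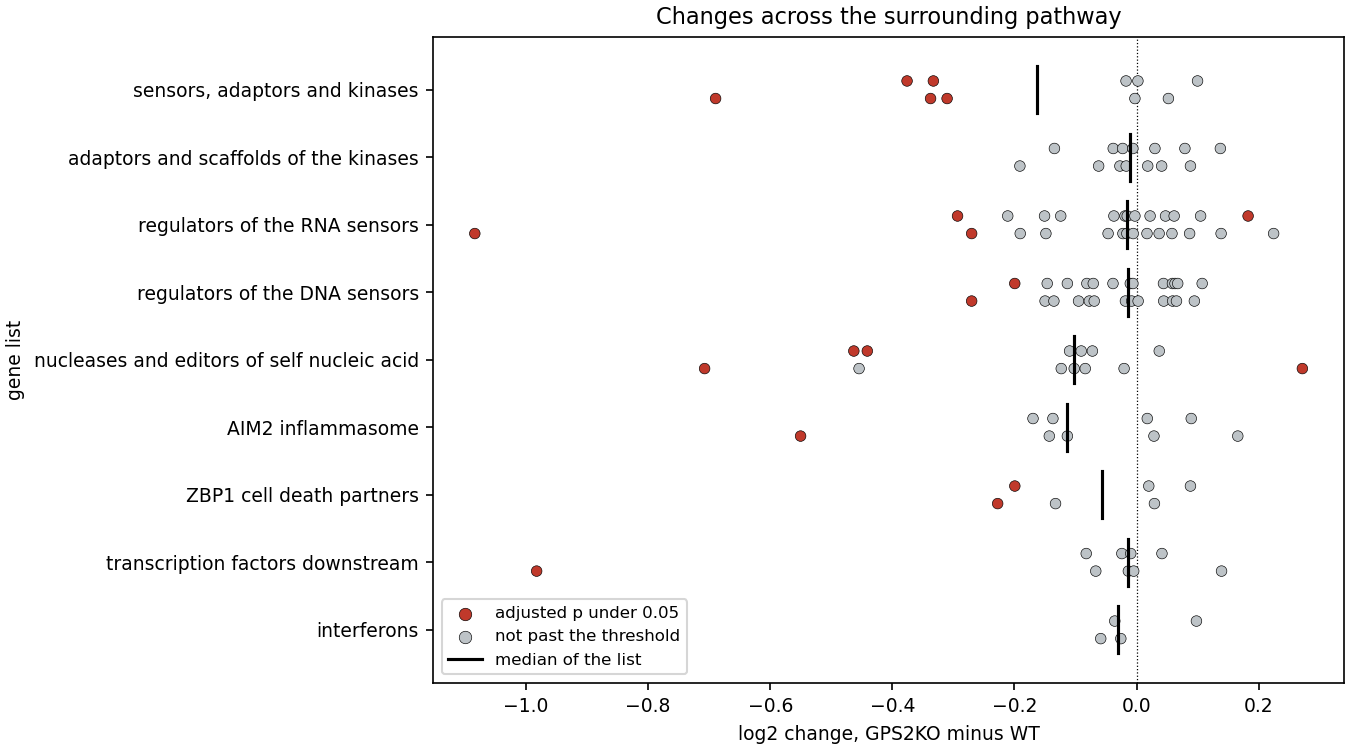
Log2 change, GPS2KO minus WT, of every tested gene of the set and of the 8 surrounding pathway lists, 1 point per gene, red where the adjusted p was under 0.05. Vertical bars are list medians, which run from -0.16 for the sensors, adaptors and kinases to -0.01, and Usp18 and Irf7 lie farthest to the left.

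Markers of other cells that marrow cultures can hold are given beside these falls. In bulk RNA fewer cells of a type and less RNA per cell cannot be told apart. The counts of markers stand beside 3.83% of all tested genes that fell and 2.9% that rose. Every GPS2KO array lay below every WT array for 15.2% of all tested genes, and above for 11.9%. Of 8 fibroblast and stromal markers 2 fell, Pdgfrb (-0.28, limma adjusted p = 0.00675) and Col1a1 (-0.20, limma adjusted p = 0.0225), Dcn rose (0.30, limma adjusted p = 0.0334) and 5 did not pass. Pdgfrb held its call without any 1 array, whereas adjusted p reached 0.0796 for Col1a1 without GPS2KO replicate 2 and 0.115 for Dcn without the same array. Their signal summed on the linear scale ran from 15795 to 16457 in GPS2KO and from 17441 to 17793 in WT. The brightest, Fn1 and Col1a1, averaged 12.79 and 11.77 in GPS2KO and 12.86 and 11.97 in WT. The stromal sum was thus lower on every GPS2KO array, but a linear sum is weighted to its brightest genes. Of the 8 markers 5 had a lower mean in GPS2KO. Dcn had a higher mean, as did Pdgfra (0.31) and Lum (0.15), which did not pass. The part of stromal cells in the falls of the sensor and kinase genes was not tested.

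Of 6 markers of plasmacytoid dendritic cells, a main source of interferon, 0 passed. Those markers summed to between 3213 and 3316 in GPS2KO and to between 3272 and 3464 in WT, and nearly all of it came from Tcf4 and Bst2, which are not confined to that cell. Siglech, a defining marker, was dim, at 4.71 in GPS2KO and 4.65 in WT. Of 8 markers of conventional dendritic cells 0 passed, with Ccr7 and Zbtb46 the brightest at 6.24 and 5.71 in GPS2KO and 6.29 and 5.81 in WT. Their sums ran from 259.9 to 273.6 in GPS2KO and from 269.4 to 278.9 in WT.

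Of 7 neutrophil markers 1 rose, Ngp, by 0.46 (limma adjusted p = 0.0151, up to 0.0617 with an array left out), and S100a8 averaged 5.84 in GPS2KO and 5.77 in WT. The sums of the 7 ran from 266.9 to 306.9 in GPS2KO and from 252.9 to 270.8 in WT. Of the 7 markers 4 had a lower mean in GPS2KO, and the median change was -0.03. In 1 marker every GPS2KO array lay above every WT array, and in 1 every one lay below. Of 7 lymphocyte markers 0 passed and all were dim, with sums from 158.2 to 163.5 in GPS2KO and from 160.2 to 165.0 in WT. Cd3e and Klrb1c, the brightest, averaged 5.18 and 5.02 in GPS2KO and 5.21 and 5.12 in WT. Of 9 macrophage markers 2 rose, Mertk by 0.24 and Itgam by 0.19, and 0 fell, though Itgam passed in none of the fits without an array (adjusted p up to 0.1). These 9 had sums from 48411 to 48696 in GPS2KO and from 46710 to 48323 in WT, higher on every GPS2KO array. This sum too is weighted to its brightest genes. Of the 9 markers 3 had a lower mean in GPS2KO. In 5 every GPS2KO array lay above every WT array, and in 1 every one lay below. The part of these markers in the falls was not tested.

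The calls of Zbp1, Ikbke, Ddx58 and Ifih1 held under each of the 13 other settings that were run, which included leaving out each of the 6 arrays. Their adjusted p over these settings reached at most 0.0103 for Zbp1, 0.0151 for Ikbke, 0.0214 for Ddx58 and 0.0346 for Ifih1. Aim2, Sting1, Cgas, Mavs and Tbk1 passed under none of them. The sign of the small differences of Sting1, Cgas and Mavs turned with the setting, within -0.04 and 0.06.

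**Figure D4:**
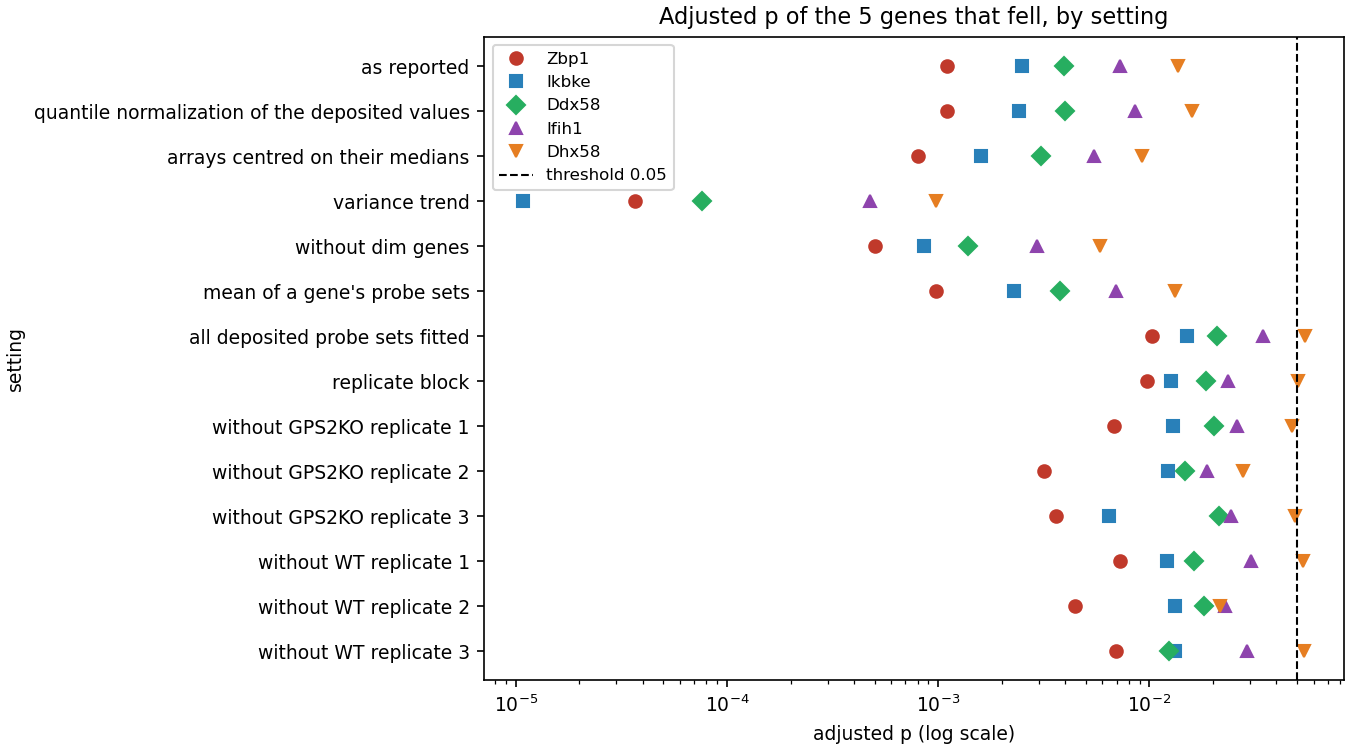
Adjusted p (log axis) of the 5 genes that fell, as reported and under 13 other settings, with the threshold of 0.05 as a dashed line. Only Dhx58 lies to the right of the line under any setting, at 0.0507 to 0.0544 under 4 of them.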

How the data were processed

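RNA of 6 macrophage samples was measured on 1 Affymetrix array each. The deposited log2 intensities were made by the authors with RMA in the R package oligo, per the submitters' processing notes, a method that corrects background, normalizes quantiles across arrays and summarises each probe set by median polish. Versions, annotation package and build are not given in the sources used here. This hides any shift common to most genes, and leftover background compresses dim signals. Of 35556 probe sets, GEO's platform annotation gave 21218 exactly 1 symbol, 1881 several, and did not list the rest. Of those with 1 symbol, 21185 matched RefSeq (GRCm38.p6) by gene number. The brightest probe set stood for a gene, leaving 18820 genes. Groups came from the sample titles.

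Genes were tested with limma 3.58.1 in R 4.3.3 (lmFit, eBayes, group as only term, 2-sided), adjusted over all tested genes by Benjamini-Hochberg with a threshold of 0.05, after a check on simulated data. Changes are GPS2KO minus WT, with SE and 95% confidence intervals. Pairs of genes were compared by exact permutation of their per-array difference. Precision is limited by the number of arrays. The 10 genes and all lists were chosen with earlier results of these data known. Named were all 10, Gps2, up to 4 genes of each pathway list by smallest p, and the 2 brightest markers of each list, together with a few genes, Irf3, Ifnb1, Siglech, Mertk, Itgam, Pdgfrb, Dcn and the chromosomal neighbours, named after their values were seen. The kappaB and STAT motifs, the closer GAAANGAAA pair, the order of arrays and the neighbours were also taken up after the sequences or values were seen. Of the list genes, 20 entries were not analysed here.

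Same-numbered arrays did not deviate together (r of deviations across genes from -0.006 to 0.026), so replicate numbers were not used as pairs. Alternatives were quantile normalization, median centring, a variance trend, leaving out dim genes, averaging probe sets, fitting all probe sets, the replicate number as a block, and leaving out each array.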

Additional observations from a re-analysis of the deposited data

How the results depend on the processing

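Gps2 and 4 of the 5 falls (Zbp1, Ikbke, Ddx58 and Ifih1) kept their direction and their call under every alternative run, and no called value changed sign. Among the 10 genes, between 4 and 5 fell and 0 rose under each alternative. Counts over all genes moved more. With a variance trend 1248 genes fell and 926 rose, and without dim genes 1154 fell. Fitting all deposited probe sets, unnamed ones included, left 343 named genes that fell and 275 that rose, with 6 falls and 0 rises among the pathway genes. Under that setting Usp18 (adjusted p = 0.0523), Isg15 (0.0668), Ripk3 (0.0868), Trim56 (0.0869), Ppp1cc (0.0878), Casp6 (0.0913) and Dnase1l3 (0.131) lost their calls. Leaving out 1 array gave 419 to 503 falls and 322 to 376 rises over all genes, and 7 to 10 falls and 0 to 1 rises among pathway genes. Among the pathway genes 22 fell and 4 rose with a variance trend, 21 fell without dim genes, 18 fell and 0 rose after median centring, and 1 rose after quantile normalization. With the replicate number as a block, which the check of deviations did not bear out as a pairing, 492 genes fell and 370 rose, 4 of the 10 genes fell, Dhx58 having adjusted p = 0.0507, and 0 pathway genes rose. Not every array deviated most like the array of its own number. Fewer arrays leave fewer degrees of freedom. Fitting all probe sets changed both the number of tests and the standard errors, and these were not separated. The cause of the shifts was not tested. The signals of Ifnb1, Isg15 and Dnase1l3 were dim, where background left in the values compresses a change.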
